A study of Mus musculus with 2 samples.

Results

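Pik3ap1 (also called BCAP), Pik3cd, Pik3cg, Pik3r1, Pik3r5, Inpp5d, Akt1, Akt2 and Mtor carry phosphoinositide 3-kinase (PI3K) signalling from adaptor to downstream kinase. These 9 genes were taken from 18193 genes measured on an Affymetrix 3' expression array, by the gene symbol that the platform annotation gives. All 27 probe sets named for 1 of these genes alone were used. The gene set was chosen by the knockout minus wild-type difference of Pik3ap1, which was large on these same arrays, so every value of this comparison is given as a description.

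One culture came from male C57BL/6 mice with the miR-223 gene knocked out, and the other from wild-type male C57BL/6 mice. The labels used here state neither the ages nor the knockout allele. Blood-forming progenitors of both genotypes were grown into neutrophils for 6 days with G-CSF, the main growth factor of granulocytes, and SCF, which binds the receptor tyrosine kinase Kit. Both cultures received cycloheximide, an inhibitor of protein synthesis, at 100 ug/ml for the last 8 min. There was 1 array per genotype, so no difference has a replicate check, no test was possible, and the precision of each value is limited by this number of arrays.

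PI3K enzymes of class I phosphorylate a membrane lipid to PIP3, which recruits proteins such as the AKT kinases to the membrane. In neutrophils this signal is known for steering chemotaxis, the oxidative burst and survival. Receptors reach the enzymes by separate routes: phosphorylated tyrosines on adaptors such as Pik3ap1 bind the regulatory subunit p85, whereas G protein-coupled receptors act through Pik3cg with its partner Pik3r5. The lipid phosphatase SHIP1, the product of Inpp5d, removes PIP3 again.

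The microRNA that the knockout removes is shown with its seed, bases 2 to 8, in capitals, because the seed is what a target messenger RNA pairs with. Both mature arms are RefSeq sequences (GRCm38.p6, plus strand), the 3p arm at chrX:96242884-96242905 and the 5p arm at chrX:96242842-96242864. No search for matches to these seeds was made in the genes described here.
mmu-miR-223-3p: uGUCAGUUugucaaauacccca
mmu-miR-223-5p: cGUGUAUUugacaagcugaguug

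Values are the deposited intensities, and a difference is the knockout value less the wild-type value, each as log2(intensity + 16), which shrinks differences of dim probe sets. A gene counted as expressed when its brightest probe set over both arrays reached the median of all probe sets, an intensity of 33.9. By this measure all 9 genes were expressed, and so were 23 of their 27 probe sets. The yardstick for a small difference was the pooled SD of expressed probe sets within a gene, 0.144 over 5017 genes; it describes these arrays and is not a replicate error.

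Pik3ap1 was the only one of the 9 genes at 2-fold or more in size, where 0.145% of the 11006 expressed genes stood in either direction and 0.0454% on the lower side. That difference is why the gene was chosen. The other 8 were all slightly higher in the knockout array, by 0.03 to 0.12 on the log2 scale, each within the spread between probe sets. Over all 9 genes the median difference was 0.06, against -0.00037 over all expressed genes. Of the expressed genes, 49.7% stood higher by any amount. All 8 remained higher under quantile normalization, loess and the mean of all probe sets. The same held under median centring and pseudocounts of 1 and 64. Median centring raised every difference by the same amount, and a pseudocount cannot change the sign of a probe set's difference. Of the 8 genes, the 7 still measured without probe sets of the shared-sequence classes (suffix a_at, s_at or x_at) were also higher. Of these 7, only Akt2 changed to another probe set. Control probe sets for spike-in RNAs, meant to be added in fixed amounts, were mostly lower in the knockout array. The medians were -0.11 for hybridization (17 of 18 lower) and -0.16 for poly-A controls (25 of 27 lower). These were picked by name, and whether each RNA was added here was not checked. The poly-A shift was larger in size than the difference of each of these 8 genes, and its part in them was not tested.

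**Figure D1:**
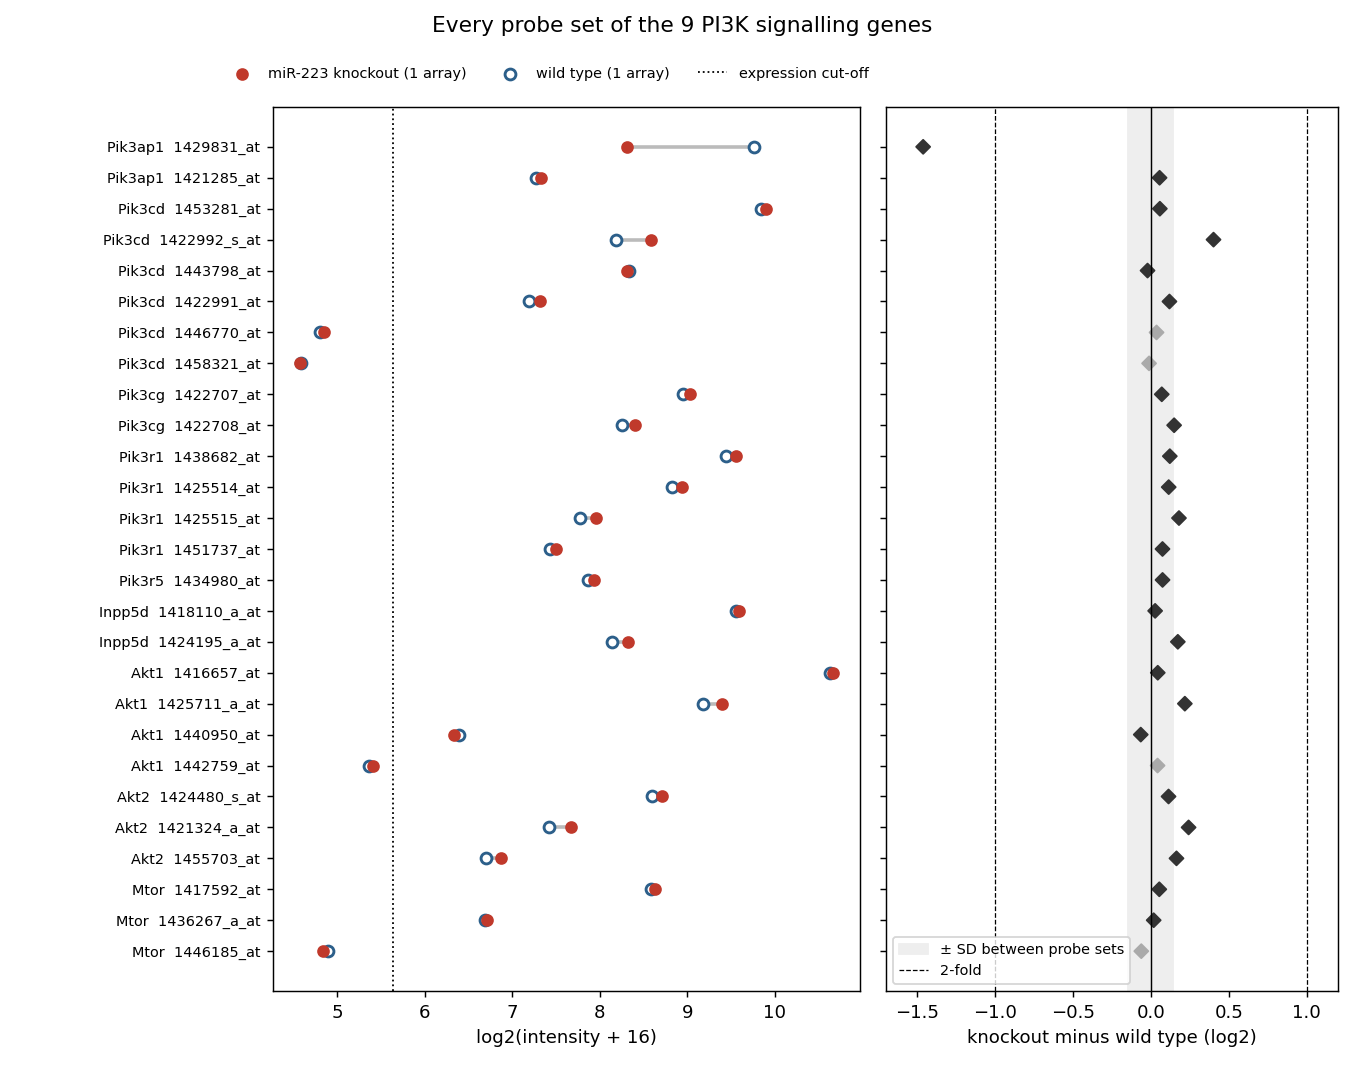
Left, log2(intensity + 16) of each of the 27 probe sets on the miR-223 knockout array (filled) and the wild-type array (open), with the expression cut-off dotted. Right, knockout minus wild type (log2) of the same probe sets, grey where below the cut-off, with the SD of 0.144 between probe sets shaded and 2-fold dashed; 1 probe set of Pik3ap1 lies at -1.46 and every other one between -0.06 and 0.40.

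Pik3ap1 is the adaptor that links B cell, Toll-like and interleukin-1 family receptors to p85. Its brighter probe set, 1429831_at, had an intensity of 300.4 on the knockout array and 856 on the wild-type array. This is a difference of -1.46, with the wild-type intensity 2.85 times the knockout intensity, and no expressed gene stood lower. The other probe set of Pik3ap1, 1421285_at, gave 145 on the knockout array and 139 on the wild-type array, a difference of 0.06. So 1 probe set reported a strong decrease in the knockout array and the other almost none, although both passed the expression cut-off. With the mean of both, Pik3ap1 stood at -0.70, below 2-fold. The dimmer probe set was designed on a RefSeq transcript record and the brighter one on another GenBank record. Where each lies along the transcript, and which forms of the messenger RNA each detects, were not analysed here.

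Probe sets of the same gene seldom disagreed by this much. Among the 5017 genes with at least 2 expressed probe sets, the highest and lowest difference of a gene lay 0.17 apart at the median and 0.48 apart at the 95th percentile. For Pik3ap1 they lay 1.52 apart. The lower end of that gap is the value by which the gene was chosen, so its place among these genes is a description only. Ctse, the protease cathepsin E, had the only wider gap, from -1.23 to 0.90, and 7 genes in all had a gap of 1 or more. Of the other genes of the set, Pik3cd had the widest gap at 0.42 and Mtor the narrowest at 0.04, with Pik3r5 measured by 1 probe set alone.

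**Figure D2:**
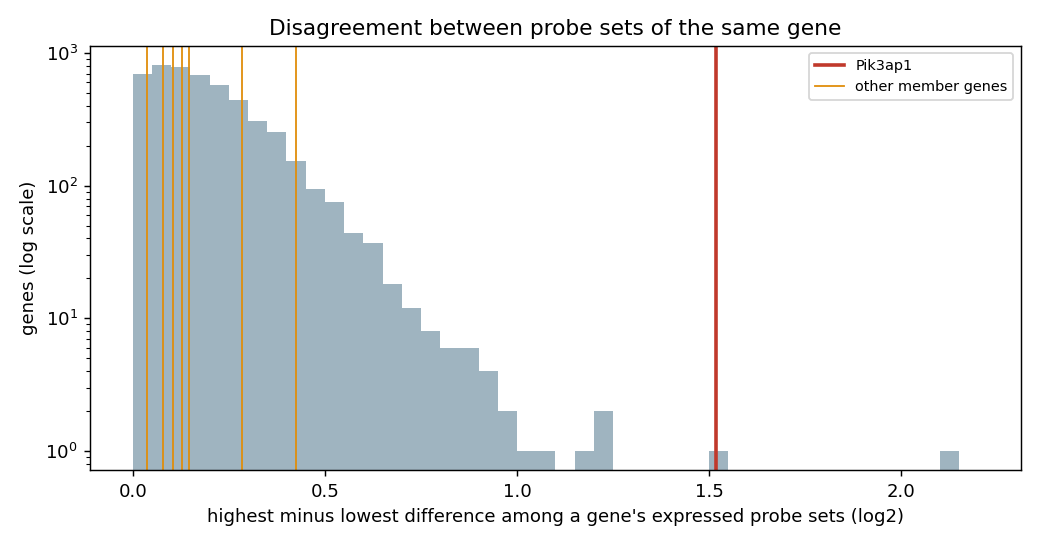
Number of genes (log scale) by the gap between the highest and lowest difference of their expressed probe sets (log2), for the 5017 genes with at least 2. Vertical lines mark Pik3ap1, chosen by its large difference, at 1.52. They also mark the 7 other genes of the set with several expressed probe sets, which lie between 0.04 and 0.42.

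None of the expressed genes next to Pik3ap1 on chromosome 19, 3 on each side being read, had a value as low as that of its brighter probe set. On one side Tm9sf3, a membrane protein of the secretory pathway, had intensities of 3059 in the knockout and 2877 in the wild-type array (0.09), with 4 expressed probe sets from 0.08 to 0.74. On the other side Lcor, a nuclear receptor corepressor, had 349 in the knockout and 328 in the wild-type array (0.08), with 4 expressed probe sets from -0.08 to 0.08. Slit1, a guidance ligand (0.04), and Arhgap19 (-0.02) followed. Opalin and Tll2, the next measured genes beyond Tm9sf3, were below the expression cut-off.

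The expressed genes whose pair of log2 values over the 2 arrays was nearest to that of Pik3ap1, by Euclidean distance, were Lipg, Acod1, Prg2, Gja1 and Mrpl47. Lipg, endothelial lipase, lay 0.56 away, with an intensity of 449 in the knockout array and 882 in the wild-type array. Acod1, the itaconate-producing enzyme, lay 0.59 away with 459 in the knockout and 842 in the wild-type array. Prg2, the eosinophil major basic protein, had 452 in the knockout array and 758 in the wild-type array. The 5 genes had differences from -0.95 for Lipg to -0.53 for Mrpl47, a mitochondrial ribosomal protein. Some of these also had expressed probe sets near 0, at -0.07 for Lipg and -0.06 for Mrpl47. A likeness over 2 arrays also depends on probe brightness, so it describes the numbers only.

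The catalytic subunits of the set were close between the genotypes. Pik3cd encodes p110 delta, the leukocyte enzyme that works downstream of tyrosine kinases. Its brightest probe set had 938 in the knockout array and 901 in the wild-type array, a difference of 0.06. A probe set of the class that can share sequence with other transcripts, 1422992_s_at, gave 369 in the knockout and 275 in the wild-type array, or 0.40. This was the highest value of any probe set in the gene set, and the other 2 expressed probe sets of Pik3cd, at 0.12 and -0.02, were within the spread. The remaining 2 were below the cut-off, with intensities of at most 12.7 in the knockout array. Pik3cg encodes p110 gamma, the enzyme driven by chemoattractant receptors. It had 505 in the knockout and 480.2 in the wild-type array (0.07) on one probe set. The other gave 322 in the knockout array and 288 in the wild-type array (0.15), the same sign at a slightly larger size.

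The regulatory subunits of the set, Pik3r1 and Pik3r5, were higher on all of their probe sets. Outside the set, Pik3r6 was lower on both expressed probe sets (-0.13 and -0.02), while Pik3r2 (0.08) and Pik3r4 (0.26) were higher. Pik3r1 encodes p85 alpha and shorter forms, which stabilize the catalytic subunit and bind phosphorylated adaptors. Its 4 probe sets, all expressed, had intensities of 738, 474, 233 and 165 in the knockout array, against 677, 437, 204 and 156 in the wild-type array. The differences ran from 0.07 to 0.18, and the knockout value was the higher one on each. Pik3r5 encodes p101, the partner of p110 gamma that binds G protein beta-gamma subunits. Its single probe set had 229 in the knockout array and 216 in the wild-type array (0.08), so no second probe set could be compared.

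Inpp5d, whose product SHIP1 limits PIP3 in blood cells, had 753 in the knockout array and 738 in the wild-type array (0.03). The other probe set gave 303 in the knockout and 267 in the wild-type array, or 0.17. Both lay on the same side, and the second was just beyond the spread between probe sets.

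Of the downstream kinases, Akt1 and Akt2 encode AKT isoforms that PIP3 brings to the membrane. Akt1 had 1613 in the knockout array and 1563 in the wild-type array (0.04) on its brightest probe set. A second gave 658 in the knockout and 564 in the wild-type array (0.22), and a dim one gave 64.3 in the knockout and 68.0 in the wild-type array (-0.06), so its probe sets differed in sign. The remaining one was below the cut-off. Akt2 was higher on each of its 3 probe sets, with 404, 187 and 101 in the knockout array, against 372, 156 and 88.2 in the wild-type array. Those differences were 0.11, 0.24 and 0.16. Mtor encodes the kinase at the core of both mTOR complexes. It had 382 in the knockout and 367 in the wild-type array (0.05), and 88.7 in the knockout and 87.4 in the wild-type array (0.02) on the other expressed probe set. Its remaining probe set was below the cut-off.

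Counted over probe sets, 20 of the 23 expressed ones had the higher value in the knockout array and 3 the lower, where 53.6% of the 19482 expressed probe sets named for 1 gene were higher. Beyond the spread between probe sets lay 8 of the 23, against a background of 37% of expressed probe sets. Of the 8 genes with several expressed probe sets, Pik3cg, Pik3r1, Inpp5d, Akt2 and Mtor were higher on all of them, as were 30.2% of such genes in the data. Pik3ap1, Pik3cd and Akt1 had probe sets of both signs, as did 47.5%. Probe sets of a gene share the same 2 RNA samples, so their agreement is not replication of the genotype difference.

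**Figure D3:**
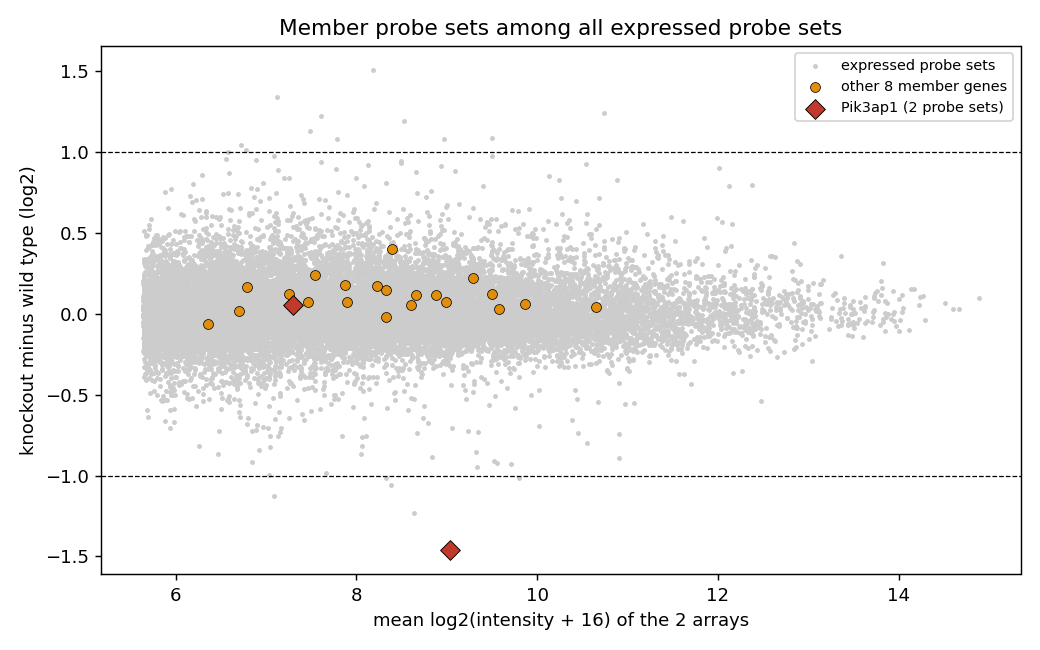
Knockout minus wild type (log2) against the mean log2(intensity + 16) of both arrays, for the 19482 expressed probe sets named for 1 gene (grey). The 2 probe sets of Pik3ap1 (red) lie at -1.46 and 0.06, and those of the other 8 genes (orange) between -0.06 and 0.40; dashed lines mark 2-fold.

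Around these 9 genes, 145 further genes of the pathway were listed by role, of which 136 were measured and 128 expressed. Of the 128, the knockout array had 77 higher (60.2%, against 49.7% of all expressed genes), 50 lower and 1 equal, with a median of 0.04 and a range from -0.37 to 0.64. None reached 2-fold. At 0.5 or more stood 1 gene, or 0.781%, against 1.72% of all expressed genes. Beyond the spread between probe sets lay 47, or 36.7%, against 34.3% of all expressed genes. The number of higher genes depended on scale, with 71 of 128 under quantile normalization and 88 under median centring. Under quantile normalization the pathway median was 0.014, against -0.017 over all expressed genes. Under median centring it was 0.049, against 0.011.

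Among upstream kinases and adaptors, 13 of 23 expressed genes stood higher and 10 lower, and the median was 0.02. The Gab proteins, docking adaptors that recruit p85 after cytokine receptor activation, had the largest differences. Gab2 had 922 in the knockout array and 695 in the wild-type array (0.40), with all 3 of its expressed probe sets higher, from 0.23 to 0.40. Gab1 had 72.8 in the knockout and 51.6 in the wild-type array (0.39), and 0.61 on its other expressed probe set. Gab3 had 61.5 in the knockout array and 47.1 in the wild-type array (0.30). These adaptors stood on the opposite side from the brighter probe set of Pik3ap1, and on the same side as its dimmer one (0.06). Gng2, a G protein gamma subunit, stood at 0.26, with its 4 expressed probe sets up to 0.75.

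Of 19 other PI3K subunits and lipid kinases, 12 stood higher and 6 lower, and the median was 0.04. Pik3ca, the widely expressed p110 alpha, had 363 in the knockout array and 309 in the wild-type array (0.22), and its 5 expressed probe sets were all higher, up to 0.36. Pik3r4, a regulatory subunit of the class III enzyme, stood at 0.26. Pi4k2b, a kinase of the precursor lipid, had 789 in the knockout and 639 in the wild-type array (0.30), with probe sets up to 0.79. Pip4k2a stood at 0.32, but its probe sets ran from -0.26 to 0.40.

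Of 18 phosphatases, 12 stood higher and 6 lower, and the median was 0.09. Phlpp2 and Phlpp1, which dephosphorylate AKT, stood at 0.30 and 0.23, each on 1 expressed probe set. The inositol phosphatases Inpp5b (0.20) and Synj1 (0.19) followed. Inpp4b, which acts on a breakdown product of PIP3, was below the expression cut-off, with 37.1 in the knockout array and 20.7 in the wild-type array.

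Of 26 effectors of the PI3K lipids, 16 stood higher and 10 lower, and the median was 0.05. Cyth4, an exchange factor of Arf GTPases, had 503 in the knockout array and 364 in the wild-type array (0.45). Rasa3, a Ras GTPase-activating protein, had 889 in the knockout and 722 in the wild-type array (0.30). Plekha1, the lipid-binding adaptor TAPP1, was the lowest of the 128 expressed pathway genes outside the 9, with 192 in the knockout array and 253 in the wild-type array (-0.37). Each of these 3 rests on 1 expressed probe set. Vav1, an exchange factor of Rac in blood cells, stood at 0.25, with -0.07 on its other expressed probe set.

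Of 42 genes in the AKT and mTOR branch, 24 stood higher and 18 lower, and the median was 0.04. Prr5l, a protein that binds mTOR complex 2, was the one gene at 0.5 or more, with 79.6 in the knockout array and 45.4 in the wild-type array (0.64) on its 1 expressed probe set. Cdkn1a, the cell cycle inhibitor p21, had 394 in the knockout and 501 in the wild-type array (-0.34), and its other probe set gave -0.27. Foxo3, a transcription factor that AKT excludes from the nucleus, had 483 in the knockout array and 393 in the wild-type array (0.28). Its 2 expressed probe sets agreed, at 0.28 and 0.31. Rps6kb2, an S6 kinase, stood at 0.31.

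**Figure D4:**
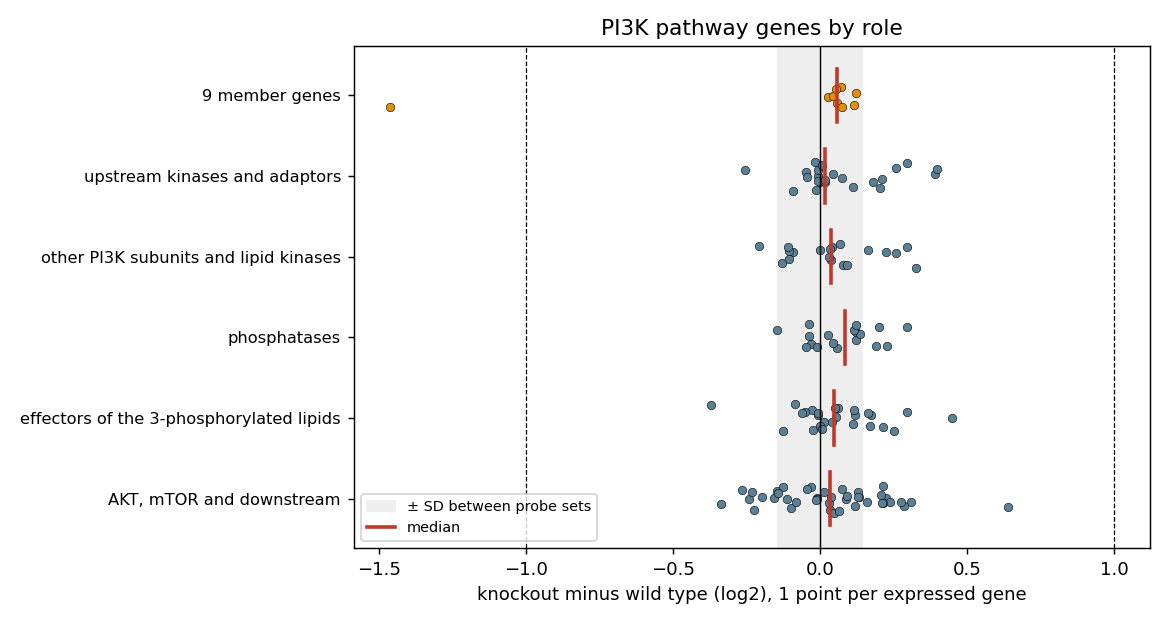
Knockout minus wild type (log2) of each expressed gene, by role, for the 9 genes (top) and the 5 pathway lists. Red bars are medians, from 0.02 for upstream kinases and adaptors to 0.09 for phosphatases; Pik3ap1 is the only gene beyond the dashed 2-fold lines, and Prr5l is the highest at 0.64.

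Markers of the cells the cultures could hold were read beside these values, since in a culture fewer cells of a type and less RNA per cell cannot be told apart. All 12 measured neutrophil markers were expressed, with summed intensities of 168078 in the knockout and 160055 in the wild-type array; 11 were higher. Of 8 measured B cell markers 4 were expressed, and 3 of these were higher, with sums of 1359 in the knockout array and 908 in the wild-type array. The B cell genes Cd79a, Ms4a1, Blk and Vpreb1 were below the cut-off on the combined arrays. Most of the B cell sum was Ighm, the immunoglobulin heavy chain, with 1042 in the knockout array and 662 in the wild-type array, and its 3 expressed probe sets ran from -0.14 to 0.94. Of the other expressed ones, Cd79b stood at 0.43, Igll1 at 0.37 and the B cell transcription factor Pax5 at -0.14. Of those below the cut-off, Cd79a stood at -0.18, Ms4a1 at -0.07, Blk at 0.04 and Vpreb1 at 0.11. The part of B cells in the Pik3ap1 value was not tested. No marker was at 0, since the lowest intensity of any probe set was 4.49 in the knockout array and 4.56 in the wild-type array.

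Most markers of several other lineages were lower in the knockout array. Of all 11006 expressed genes, 5511 were lower. All 9 expressed mast cell and basophil markers of 10 measured were lower, with sums of 4644 in the knockout array and 6666 in the wild-type array. Of 8 megakaryocyte and platelet markers, all expressed, 7 were lower, with 1362 in the knockout and 2118 in the wild-type array. The exception was Itgb3 at 1.34, with 205 in the knockout and 71.1 in the wild-type array, and its other expressed probe set gave 0.37. Of 6 eosinophil markers 4 were expressed and 3 were lower, with 968 in the knockout array and 1192 in the wild-type array. Siglecf went the other way, at 0.92, with 370 in the knockout and 187 in the wild-type array. Of 8 dendritic cell and MHC class II markers 6 were expressed and 5 were lower, with 1194 in the knockout and 1383 in the wild-type array. Their part in the Pik3ap1 values, -1.46 on the brighter probe set and 0.06 on the other, was not tested.

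Monocyte and macrophage markers were higher in 7 of 9 expressed genes of 10 measured, with sums of 8236 in the knockout array and 7031 in the wild-type array. T and NK cell markers were expressed in 4 of 7 cases, 1 higher and 3 lower, with a median of -0.05 and sums of 1344 in the knockout and 1059 in the wild-type array. The higher sum came from Nkg7, a cytotoxic granule protein, with 1181 in the knockout array and 847 in the wild-type array. Cd3d, a CD3 chain of the T cell receptor complex, had 41.8 in the knockout and 85.7 in the wild-type array (-0.81). The other expressed T cell genes, Cd8a (-0.07) and Cd4 (-0.03), were close between the arrays. Cd3e (-0.06) and Cd3g (0.05) were below the expression cut-off.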

How the data were processed

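For each array the authors deposited linear intensities, 1 per probe set. Per the labels' protocols, Trizol was used to extract total RNA, and the 3' IVT Express kit to make biotinylated cRNA, so signals come mainly from transcript 3' ends. The background correction, summarization and normalization are steps not given in the sources used here. Of 45101 probe sets, 64 controls were set apart; of the other 45037, 34945 carried 1 gene symbol in the platform annotation, 932 several and 9160 none. Symbols of 34741 were updated through Entrez identifiers with RefSeq genes of GRCm38.p6, used only for names and gene order.

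From these, log2(intensity + 16), knockout minus wild type, was computed with Python 3.11.15 and pandas 2.3.3, without further normalization. The probe set with the highest mean stood for its gene, and differences of at least 1 in size (2-fold) were counted. The 9 genes, pathway lists and marker lists were chosen with earlier results of these data known. Genes named outside the 9 were, per role list, those at 0.5 or more, filled up to 4 by the next largest. Also named were the 5 nearest to Pik3ap1 in value and the 3 on each side in gene order. Inpp4b, Ctse, Pik3c2a, Pik3r2, Pik3r6 and the individually named cell type markers were added after their values were seen. Of the pathway genes, 9 were not analysed here. The gene selection and counting were tested on simulated data.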

Additional observations from a re-analysis of the deposited data

How the results depend on the processing

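With the mean over all probe sets Pik3ap1 stood at -0.70 and 0 of the 9 genes at 2-fold, and on its other expressed probe set Pik3ap1 turned to 0.056; the averaging of a probe set near 0 gives the first value by construction. The setting with the other Pik3ap1 probe set was chosen after seeing the data. So were the median without Pik3ap1 (0.06) and the count of genes with every expressed probe set higher (6). In the 6 processing alternatives other than the mean over all probe sets, Pik3ap1 stayed at 2-fold or more below wild type. Pathway genes outside the 9 at 0.5 or more numbered 0 with a pseudocount of 64 and with an expression filter at the 75th percentile, and 2 without that filter and without probe sets of shared sequence, against 1 otherwise. Expressed genes at 2-fold numbered 4 with a pseudocount of 64, 9 at the 75th percentile filter and 119 at 1.5-fold, against 16; a pseudocount of 1 gave 24, and counting expressed probe sets also 24. By construction, a lower threshold counts more genes and a stricter filter leaves fewer. A larger pseudocount also shrinks differences, and a smaller one widens them. The cause of the other changes was not tested. Shared-sequence probe sets here were those with the suffix a_at, s_at or x_at. Without them Inpp5d could not be measured, since both of its probe sets end in a_at. Whether those share sequence with other genes was not looked at. The other medians and counts of these genes moved by less than the spread between probe sets, or by at most 1.5 times for a count. No paired analysis was possible because each genotype has 1 array. The sources used here give no detection calls, so the expression cut-off stands in for signal over background.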

Other observations

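The deposited numbers held a regularity in their last digits. On the knockout array 1588 of 45101 values (3.52%), and on the wild-type array 1489 (3.30%), left the same remainder of 0.007786 when divided by 0.25, equal at all 6 decimals given, where the next most common remainder occurred 69 times in the knockout and 60 times in the wild-type array. Within 0.0001 of that remainder the counts were 1790 on the knockout array and 1705 on the wild-type array. The wild-type value of the brighter Pik3ap1 probe set, 1429831_at, was one of them and its knockout value was not, while for the dimmer probe set, 1421285_at, it was the knockout value. Both values of the Pik3cg probe set 1422708_at and the wild-type value of the Pik3cd probe set 1443798_at also had this remainder, equal at all 6 decimals. Of the expressed genes, 26 had exactly the same value on both arrays, among them the class II kinase gene Pik3c2a.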
